A study of Saccharomyces cerevisiae with 2 samples.

Results

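Nucleosomes that gave far fewer reads in one MNase-seq library of yeast than in the other were described by their depth, strands, neighbours and position along the chromosomes. A nucleosome is DNA wrapped around a core of histone proteins. Micrococcal nuclease (MNase) cuts the linker DNA between nucleosomes first and then trims the ends of the protected fragment, so the fragments that remain depend on how far digestion has gone and on which sizes are cut from the gel. Nucleosomes are also known to differ in how easily MNase releases and destroys them.

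Both libraries came from cultures of Saccharomyces cerevisiae cells in rich medium (YPD) that were fixed with formaldehyde and digested with MNase, after which DNA near the size of 1 nucleosome was cut from a gel and read for 36 cycles from 1 end. Replicate 2 held 19261599 nuclear reads and replicate 1 held 21957427. The study's list of data sets names the BY laboratory strain, and the labels give no strain. The labels give 1 condition and no word on whether the replicates are biological or technical, so the libraries could only be set against each other. With 1 library on each side no test over samples was possible, and all values below are descriptions of these libraries, with the spread over the 16 nuclear chromosomes where it was measured.

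Nucleosome calls were made on both libraries together. The reads of replicate 2 were shifted 42 bp toward their 3′ end and those of replicate 1 were shifted 47 bp, which brings the strands of a typical nucleosome to a common midpoint. Of the 49466 maxima of the smoothed midpoints, 48001 had at least 50 reads within 73 bp. A call was counted as depleted when its reads in replicate 2 per nuclear read, divided by those in replicate 1, gave a ratio of 0.6 or less. This rule selected 2841 calls, 5.92% of the 48001, and left 45160 other calls. The mirror-image limit of 1/0.6 or more took in 1240 calls (2.58%). The ratio chose the depleted nucleosomes, so their low ratio is no finding. With a shift of 73 bp in both libraries 2886 calls were depleted (6.01%). That shift displaces calls in general, so that 77.0% of the 2841 and 82.2% of the other calls had a call of that setting within 40 bp. A depleted one lay within 40 bp of 66.4% of the 2841 and of 0.988% of the other calls. Positions are in the sacCer2 build named in the submitters' processing notes, and since no genome or annotation of this build was used here, no sequence and no gene is given with them.

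The depleted nucleosomes held 312667 reads in replicate 2 and 695328 in replicate 1. This was 1.62% of the nuclear reads of replicate 2 (exact binomial 95% interval 1.62% to 1.63%) and 3.17% of those of replicate 1 (3.16% to 3.17%). A depleted nucleosome had a median of 79 reads in replicate 2 (from 5 to 1259) and 178 in replicate 1 (from 34 to 2936). The other calls had medians of 274 and 309 reads. The depleted calls were poorer in reads than other calls in both libraries, and the rule itself makes the difference greater in replicate 2. The median ratio of the depleted calls was 0.520 (interquartile range 0.448 to 0.565), against 0.996 for the other calls (0.842 to 1.18). Most of them lay near the limit. The ratio was between 0.5 and 0.6 for 1650 calls, between 0.4 and 0.5 for 817, between 0.3 and 0.4 for 294, between 0.2 and 0.3 for 66, and 0.2 or less for 14.

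The share of depleted calls was tied to depth. Among calls with 50 to 99 reads in both libraries together, 381 of 1188 were depleted (32.1%). The share was 20.3% at 100 to 199 reads, 8.41% at 200 to 399, 3.58% at 400 to 799, 1.46% at 800 to 1599 and 1.59% at 1600 or more. Counting error widens the ratio of poor calls in both directions, and the share of calls with a ratio of 1/0.6 or more was also highest at 50 to 99 reads, at 10.1%. The widening was not symmetric, since the median ratio of all calls in these classes was 0.760 at 50 to 99 reads, 0.820 at 100 to 199, 0.925 at 200 to 399 and 0.993 at 400 to 799. Poor calls as a whole thus had lower ratios, not the depleted ones alone. For single calls, the exact binomial 95% interval of the ratio lay wholly below the limit of 0.6 for 703 of the 2841 (24.7%), so that for the remaining 2138 the side of the limit was within counting error. It reached 1 for 17 calls, all with 67 reads or fewer. Since the rule used this ratio, the intervals describe its precision and are no support for the deficit. These intervals cover counting error only, and reads copied by PCR are not independent molecules.

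**Figure D1:**
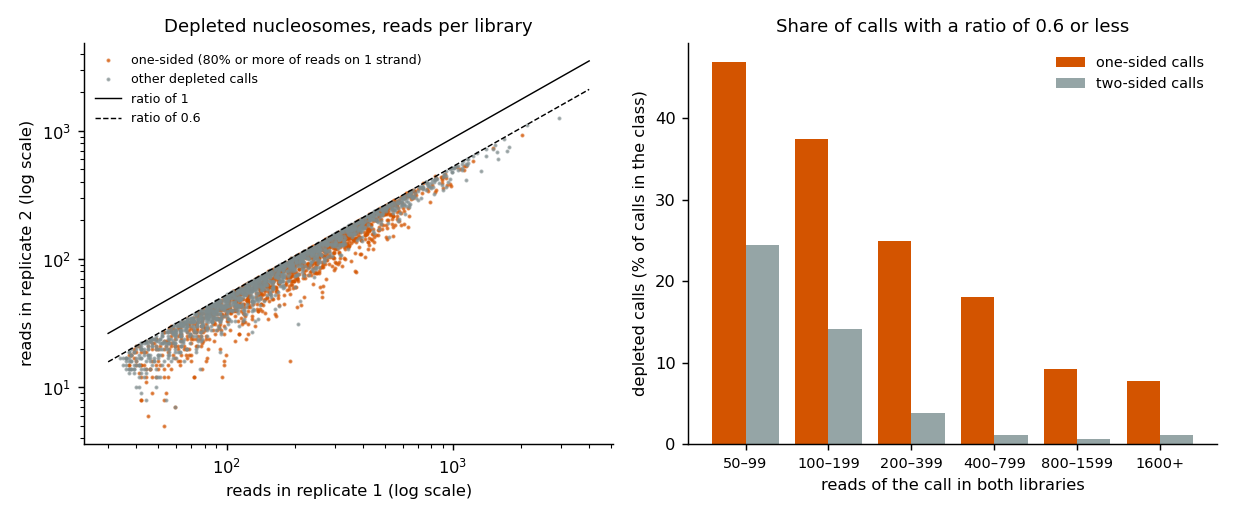
Left, each point is a depleted nucleosome, with its reads in replicate 1 on the x axis and in replicate 2 on the y axis, both on log scales, in orange where 80% or more of its reads lay on 1 strand; the lines mark ratios of 1 and 0.6 per nuclear read. Right, the bars give the depleted share of such one-sided calls (46.9% at 50 to 99 reads, 7.69% at 1600 or more) and of two-sided calls, with under 70% on the fuller strand (24.4% and 1.14%), which was higher for one-sided calls in each of the 6 depth classes.

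Of the 10 depleted nucleosomes with the most reads, 7 had under 70% of their reads on the fuller strand, called two-sided here, and 2 had 80% or more, called one-sided. The richest lay at chr4:927521-927667 (centre 927594) and had 1259 reads in replicate 2 and 2936 in replicate 1, a ratio of 0.489 (95% interval 0.457 to 0.522). Both strands were low in replicate 2, with 619 plus-strand and 640 minus-strand reads in replicate 2 against 1648 and 1288 in replicate 1. Its neighbours had ratios of 1.09 and 1.08, so the deficit ended within 1 nucleosome on either side. The call centred at 380594 on chromosome 11 had 701 reads in replicate 2 and 1738 in replicate 1 (ratio 0.460, 0.421 to 0.502), with neighbours at 0.893 and 0.920. The call at 588673 on chromosome 13 had 679 reads in replicate 2 and 1573 in replicate 1 (0.492, 0.449 to 0.539), between neighbours at 1.04 and 1.10. At 130322 on chromosome 2, with 748 reads in replicate 2 and 1764 in replicate 1 (0.483), the strands differed: the plus strand had a ratio of 0.355 and the minus strand 0.759. The other calls with less than 80% on 1 strand were 769717 on chromosome 4 (774 reads in replicate 2 and 1538 in replicate 1), 14704 on chromosome 13 (718 and 1503), 236375 on chromosome 15 (1111 and 2125) and 61018 on chromosome 1 (868 and 1685). Both one-sided ones had most of their reads on the plus strand, with ratios of 0.509 (plus) and 0.653 (minus) at 780318 and of 0.554 and 0.573 at 747508. The call at 780318 on chromosome 2 had 791 plus-strand and 141 minus-strand reads in replicate 2, and 1770 and 246 in replicate 1. The call at 747508 on chromosome 4 had 625 and 106 in replicate 2, and 1286 and 211 in replicate 1.

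The lowest ratios were found mostly at one-sided calls, which were 8 of the lowest 10. Among the 1740 depleted nucleosomes with at least 200 reads, which were 4.02% of the 43266 calls of that depth, the lowest ratio was 0.0955 (0.0535 to 0.159), at chr14:454241-454387 (centre 454314). It had 16 reads in replicate 2 and 191 in replicate 1. In replicate 1 all 191 were on the plus strand, where a count of 0 minus-strand reads allows a share of up to 1.57%, and in replicate 2 there were 15 plus-strand reads and 1 minus-strand read. Next came 504440 on chromosome 13, with 31 reads in replicate 2 and 206 in replicate 1 (0.172), and this call was low on both strands (20 plus and 11 minus reads in replicate 2, 158 and 48 in replicate 1). The call at 78867 on chromosome 3 had 51 reads in replicate 2 and 263 in replicate 1 (0.221). Of these, 44 and 250 were on the minus strand, and its left neighbour had a ratio of 2.66, so that adjacent calls stood far apart in opposite directions. At 169352 on chromosome 16 the deficit lay on 1 strand only. The minus strand had 36 reads in replicate 2 and 242 in replicate 1, while the plus strand had 19 and 21. At 804954 on chromosome 13 nearly all reads were on the plus strand, 79 of 80 in replicate 2 and 366 of 368 in replicate 1 (0.248). The other 5 of the lowest 10 had ratios from 0.234 to 0.254, and 4 of them were one-sided.

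**Figure D2:**
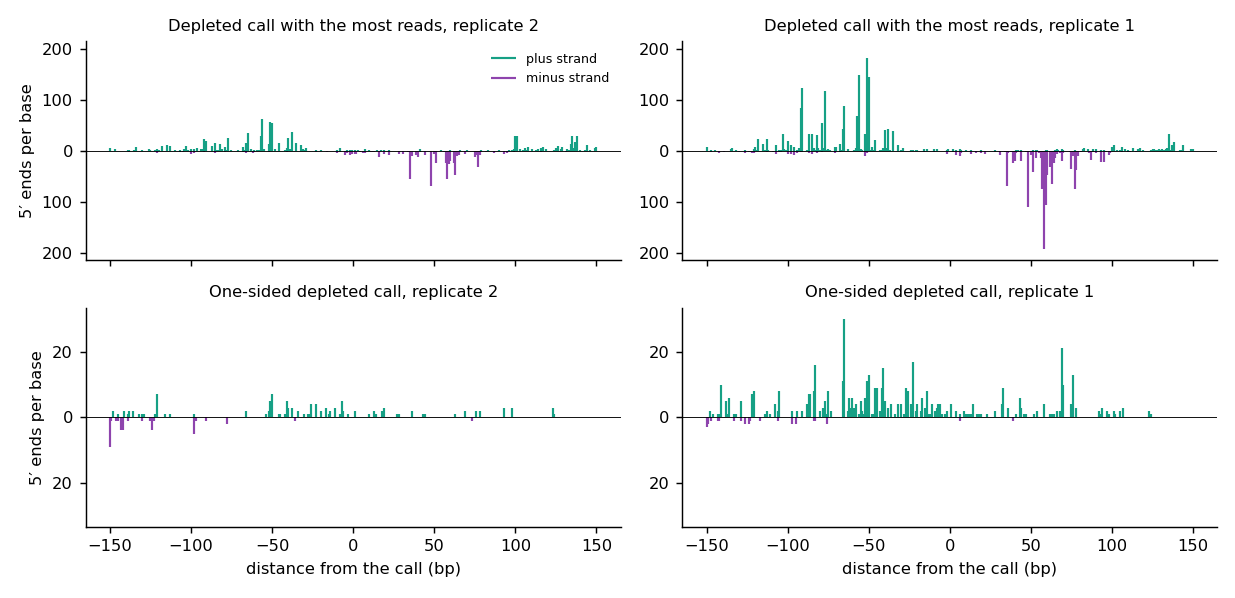
Number of 5′ ends at each base (y axis, plus strand upward, minus strand downward) by distance from the call in bp, with replicate 2 on the left and replicate 1 on the right. The richest depleted call (top, 1259 reads in replicate 2 and 2936 in replicate 1) had both strands, with the fullest minus-strand base at 68 ends in replicate 2 and 193 in replicate 1, while the one-sided call on chromosome 13 (bottom, 80 and 368 reads) had almost no minus-strand ends at the nucleosome in either library.

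Just inside the limit, among calls with at least 200 reads, lay those at 1353030 on chromosome 4 (70 reads in replicate 2 and 133 in replicate 1), 569318 on chromosome 10 (90 and 171) and 509933 on chromosome 16 (170 and 323). Just outside lay 178818 on chromosome 12 (349 and 663), 79400 on chromosome 10 (259 and 492) and 147998 on chromosome 13 (179 and 340). These 6 were picked as the nearest to the limit, and their ratios all round to 0.6.

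With single-end reads, a nucleosome core should give plus-strand 5′ ends at one edge and minus-strand 5′ ends at the other in like numbers. Depleted nucleosomes were less balanced than this. The fuller strand held a median of 78.6% of the reads of a depleted call and 62.5% of those of another call. One-sided calls were 1323 of the 2841 depleted nucleosomes (46.6%) and 4492 of the other calls (9.95%). By chromosome the one-sided share was 46.5 ± 4.48% for depleted nucleosomes and 9.87 ± 0.820% for other calls (SD, n = 16 chromosomes), and the lowest value of the depleted calls, 37.5%, was above the highest of the other calls, 11.1%. Either strand could be the fuller one, with 654 one-sided depleted calls on the plus strand and 669 on the minus strand. Two-sided calls made up 909 (32.0%) of the depleted nucleosomes and 32593 (72.2%) of the other calls, and 609 depleted calls lay between the limits.

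The strand imbalance was seen in each library by itself. In replicate 2 alone, the fuller strand held a median of 72.2% of the reads of depleted calls and 60.4% of those of other calls. In replicate 1 alone it held 82.2% and 65.0%. One-sided calls were 33.3% of depleted and 7.52% of other calls by replicate 2, and 54.2% and 15.0% by replicate 1. Low counts widen the fuller share, so each library was also read in classes of its own reads. In replicate 2, among calls with 50 to 99 reads in that library, 35.8% of 795 depleted calls and 15.0% of 3453 other calls were one-sided, and with 200 to 399 reads 25.6% of 328 and 6.19% of 17919. In replicate 1 the shares were 42.6% of 578 and 20.8% of 2452 with 50 to 99 reads, and 63.7% of 822 and 15.6% of 18208 with 200 to 399. The fuller strand was the same in both libraries at 2564 depleted nucleosomes (90.2%) and at 37563 other calls (83.2%). Among one-sided calls it was the same at 1319 of the 1323 depleted ones and at all 4492 other ones. One-sided calls were named from both libraries together, which nearly ensures this. Across the 2841 calls the plus-strand share of replicate 2 followed that of replicate 1 (Pearson's r = 0.923, Spearman's rho = 0.931), beside 0.866 and 0.858 across the other calls. These calls share the same underlying positions and are not independent replicates. The imbalance was smaller, but still present, when repeated reads were left out. With each occupied base counted once, the fuller strand held a median of 67.8% of the occupied bases at depleted calls and 56.1% at other calls, higher on 16 of 16 chromosomes, and 20.7% and 1.47% of the calls were one-sided. Depth was not matched in this count. Depleted calls had a median of 40 occupied bases in replicate 2 and 64 in replicate 1, and other calls had 81 and 91. The part of depth in this difference was not tested.

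At one-sided depleted nucleosomes the fuller strand had a lower ratio than the emptier one. It held 120676 reads in replicate 2 and 306689 in replicate 1, a ratio of 0.449. The emptier strand held 24599 in replicate 2 and 27533 in replicate 1, a ratio of 1.02. The emptier strand was above the fuller one on 16 of 16 chromosomes, with ratios of 1.01 ± 0.0473 and 0.449 ± 0.0111 (SD over chromosomes). The fuller strand was named from the same reads, to which replicate 1 gave more, and this by itself lowers the ratio of the strand so named. When replicate 2 alone named the fuller strand, 946 depleted calls were one-sided, and the ratios were 0.461 on the fuller and 0.812 on the emptier strand. When replicate 1 alone named it, 1541 were one-sided with 0.443 and 1.03. The order of the strands was the same whichever library named them, but the size of the gap was not. At a one-sided call most of the reads that the rule used lie on the fuller strand. The rule thus holds that strand low and hardly limits the emptier one, under either naming. The order of the strands at depleted calls is therefore no separate sign. The other one-sided calls had ratios of 0.858 on the fuller and 1.38 on the emptier strand, and these were 0.992 and 1.09 when replicate 2 named the strand and 0.794 and 1.61 when replicate 1 did. The emptier strand of the depleted calls was below that of the other calls under each naming. Its reads are also part of the total that the rule used. The one-sided depleted calls were poorer as well, with a median of 294 reads against 451 at the other one-sided calls. The parts of the rule and of depth in this difference were not tested. The fuller strand was below as well, which the rule largely ensures. Two-sided depleted nucleosomes had 0.485 on the fuller and 0.611 on the emptier strand.

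**Figure D3:**
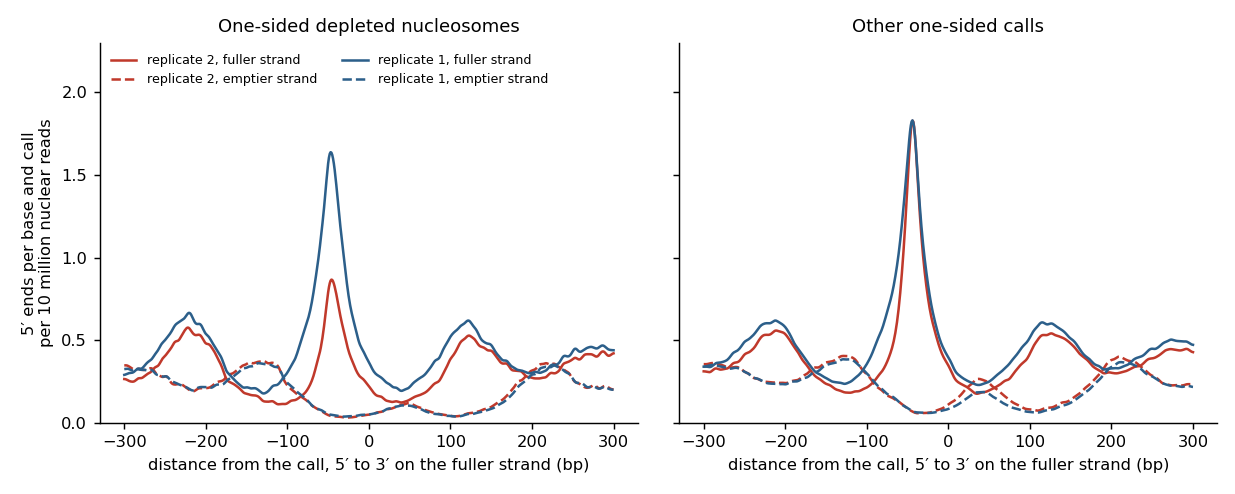
5′ ends per base and call per 10000000 nuclear reads (y axis) by distance from the call in bp, read along the fuller strand, for one-sided depleted nucleosomes (left, n = 1323) and other one-sided calls (right, n = 4492). On the left the fuller-strand peak stood at 0.866 in replicate 2 and 1.64 in replicate 1 while the emptier-strand peak stood at 0.119 and 0.105, and on the right the fuller-strand peaks of the libraries were equal (1.83 and 1.83). The low fuller-strand peak of replicate 2 on the left follows in large part from the rule.

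Since the reads of each strand come from opposite ends of the fragments, each strand was also used alone. Every depleted nucleosome had a ratio of 0.6 or less on at least 1 strand, as the rule requires. On plus-strand reads alone 1795 (63.2%) had such a ratio and on minus-strand reads alone 1782 (62.7%), but on both strands only 736 (25.9%). Both strands were low at 333 of the 909 two-sided depleted nucleosomes (36.6%) and at 275 of the 1323 one-sided ones (20.8%). The strands can also be used to choose on one and read on the other. Calls with at least 50 plus-strand reads and a plus-strand ratio of 0.6 or less numbered 3341, and 2507 of them had at least 50 minus-strand reads. Their minus-strand ratio, which had not been used to choose them, had a median of 0.959 (interquartile range 0.738 to 1.29), against 1.03 over all 43142 calls with at least 50 reads on each strand, and it was 0.6 or less at 291 of them (11.6%, against 5.57%). In the opposite direction, 2404 calls chosen on the minus strand had a median plus-strand ratio of 0.982, against 1.03, with 291 at 0.6 or less (12.1%, against 5.81%). A low ratio on the strand not used was thus more frequent than over all calls, but the median of that strand was close to the median of all calls. The sets were not matched for depth, to which the share of low ratios was tied, and the part of depth was not tested.

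The 5′ ends around depleted nucleosomes formed the usual pair of peaks. In the mean profile of the depleted calls the plus-strand peak lay 45 bp before and the minus-strand peak 45 bp after the call in replicate 2, and 46 bp in replicate 1. In other calls they lay at 43 bp in replicate 2 and 44 bp in replicate 1, so the peaks of the depleted calls were 90 and 92 bp apart and those of the other calls 86 and 88 bp. The peak heights of depleted calls in replicate 2 were 0.577 (plus) and 0.576 (minus) times those in replicate 1, against 1.09 on both strands of other calls. These peaks hold the reads that the rule used, so the low values at depleted calls restate the choice. Replicate 2 is the library with the shorter fragments by the distance at which the strands correlate best. This distance was 84 bp in replicate 2 and 93 bp in replicate 1 around depleted nucleosomes, and the same 84 and 93 bp around other calls. By chromosome it was 83.8 ± 7.29 bp in replicate 2 and 92.7 ± 6.99 bp in replicate 1 at depleted calls (SD, n = 16 chromosomes), so the ranges of the libraries overlapped, with 69 to 96 bp and 84 to 113 bp. At other calls it was 80.6 ± 4.22 bp in replicate 2 and 93.0 ± 0.632 bp in replicate 1. At the 909 two-sided depleted calls it was 93 bp in both libraries, so by this measure alone replicate 2 was not shorter there. The correlations at the best distance were weak. Pearson's r was 0.0735 in replicate 2 and 0.0514 in replicate 1 around all depleted calls, and 0.123 and 0.107 around other calls. The distance of replicate 2 at depleted calls lay anywhere from 63 to 93 bp with other settings. Calls made from moved reads favour places where the strands meet at the midpoint, so these distances are partly built in. Of the 5′ ends around depleted calls, 20.7% in replicate 2 and 26.1% in replicate 1 lay 60 to 90 bp outward of the call, and 21.3% and 27.1% around other calls. Around the two-sided depleted calls these shares were 21.0% and 26.0%, and the peaks of the mean profile lay 84 bp apart in replicate 2 and 88 bp in replicate 1.

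**Figure D4:**
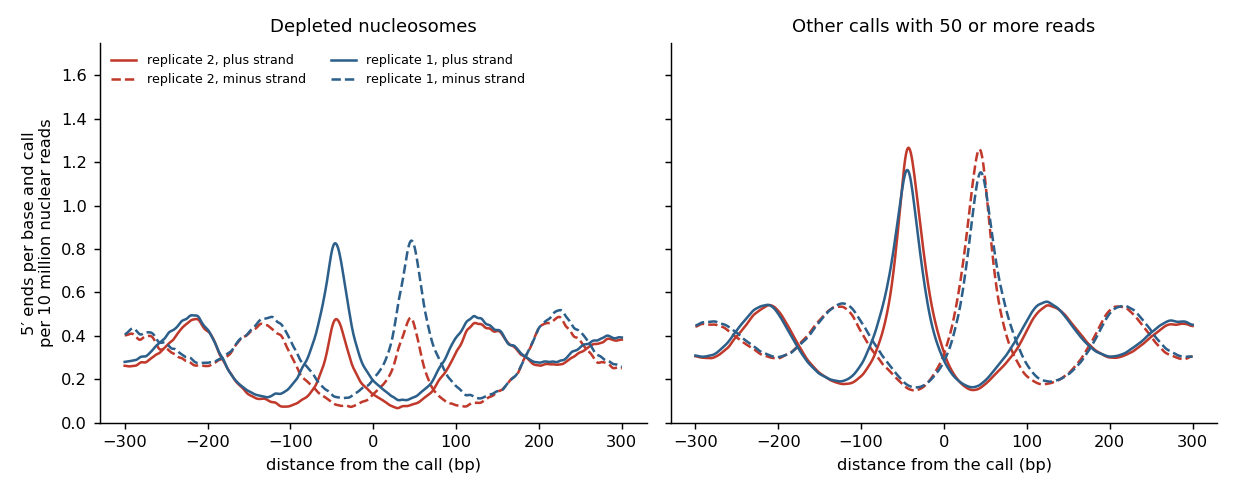
Mean number of 5′ ends per base and call per 10000000 nuclear reads (y axis) by distance from the call in bp, plus strand solid and minus strand dashed, for depleted nucleosomes (left, n = 2841) and other calls (right, n = 45160). The central peaks of the depleted calls stood at 0.477 (plus) in replicate 2 and 0.827 in replicate 1, as the rule in large part ensures, and those of other calls at 1.27 and 1.16. At depleted calls the plus-strand curves met near -197 bp (0.412 in replicate 2 and 0.413 in replicate 1). They lay farther apart at -250 bp (0.352 and 0.397).

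How tightly the midpoints gathered at the call differed little. Within 20 bp of the call lay a median of 54.8% of the midpoints of depleted calls in replicate 2, against 56.9% in other calls, and 54.4% in replicate 1, against 53.0%. The depleted calls were higher on 3 of 16 chromosomes in replicate 2 and on 15 of 16 in replicate 1. The mean midpoint of replicate 2 lay a median of 5.22 bp from that of replicate 1 at depleted calls and 3.37 bp at other calls. With 200 to 399 reads in both libraries together, these distances were 5.49 and 4.14 bp, but at the same total a depleted call has fewer reads in replicate 2 by the rule, so its midpoint there rests on fewer reads. The fullest single base held a median of 10.9% of the reads of a depleted call in replicate 2 and 9.46% in replicate 1, against 9.01% and 7.72% in other calls. It held over 20% of the reads of replicate 1 in 139 depleted calls (4.89%) and in 898 other calls (1.99%).

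Since such bases may hold copied fragments, the same 2841 positions were counted again with repeated reads limited. With at most 20 reads per base and strand, the median ratio was 0.549, and 2207 (77.7%) stayed at 0.6 or less. With 1 read per base and strand it was 0.736 (interquartile range 0.624 to 0.837), 580 (20.4%) stayed at 0.6 or less and 2757 (97.0%) were below 1. The other calls had a median of 1.02 in that count, with 43.5% below 1. The depleted calls had a median of 40 occupied bases in replicate 2 and 64 in replicate 1. Counting each base once brings full calls closer together by construction, since a base with many reads in both libraries counts the same in both. Among the 1101 depleted calls with fewer than 200 reads, where this matters less, the median was 0.615 and 491 (44.6%) stayed at 0.6 or less. These counts come from the reads that chose the calls, and fewer reads fill fewer bases, so they are no separate sign of a deficit. The part of copied fragments in the low ratio was not tested.

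Most calls of either kind had no depleted neighbour, and depleted nucleosomes had one more often than other calls. Of the 2841, 2324 had no depleted neighbour, and the others formed 205 pairs, 30 runs of 3, 3 runs of 4 and 1 run of 5. A depleted neighbour was found at 517 depleted calls (18.2%) and at 4720 other calls (10.5%). The adjacent call on the left was depleted in 10.2% of cases and on the right in 10.2%, against 5.55% and 5.58% beside other calls. Its median ratio was 0.937 on the left and 0.941 on the right, against 0.980 and 0.979. At the second neighbours the medians were 0.958 and 0.959, and at the fourth 0.977 and 0.977, equal to the other calls. Adjacent calls were also somewhat poorer in reads, with medians of 503 on the left and 519 on the right against 576. Counted without calls, the 74 to 300 bp on either side of depleted nucleosomes had a median ratio of 0.929, against 0.981 at other calls, and a ratio of 0.6 or less at 128 of them (4.51%, against 1.52%). The call was below its own flanks at 97.7% of depleted nucleosomes, which the choice of low calls in part ensures.

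**Figure D5:**
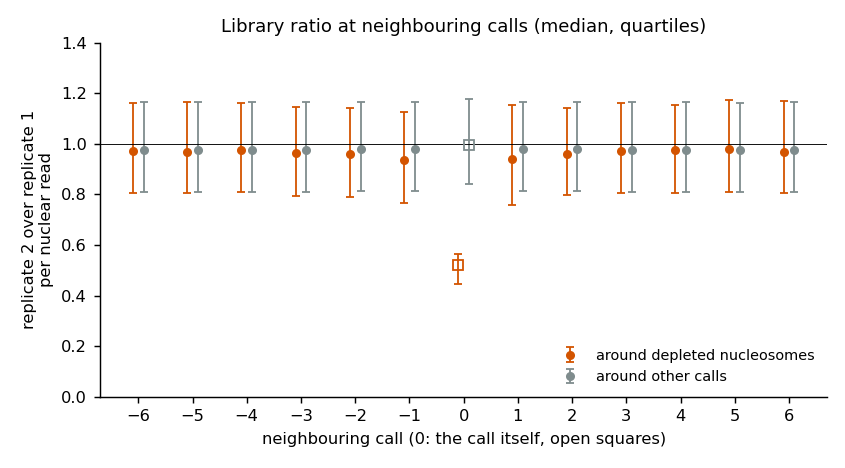
Ratio of replicate 2 over replicate 1 per nuclear read (y axis, median with interquartile range) at the neighbouring calls from 6 before to 6 after, around depleted nucleosomes (orange) and around other calls (grey), with the call itself as an open square. The median was 0.520 at the depleted call, 0.937 and 0.941 at its adjacent calls and 0.977 at the fourth neighbours.

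The longest run lay on chromosome 11 and had 5 adjacent depleted nucleosomes from 280996 to 281819, with 669 reads in replicate 2 and 1630 in replicate 1 (ratio 0.468). Its calls had 177 reads in replicate 2 and 361 in replicate 1 at 280996, 127 and 259 at 281298, 24 and 122 at 281481, 216 and 544 at 281638, and 125 and 344 at 281819. All 5 were one-sided, with 86.5% to 98.7% of their reads on the fuller strand. The call before the run, at 280464, had a ratio of 1.30, and the call after it, at 281983, had 0.618. A run of 4 on chromosome 2 from 356200 to 356779 had 370 reads in replicate 2 and 844 in replicate 1 (0.500), of which 1 call was one-sided, and its flanking calls had ratios of 1.00 and 1.03. A run of 4 on chromosome 7 from 946991 to 947694 had 335 reads in replicate 2 and 707 in replicate 1 (0.540). There, 268 and 516 of the reads belonged to 1 call, at 947529, and the other 3 had 18 to 28 reads in replicate 2 and 63 to 65 in replicate 1.

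Along the chromosomes the depleted nucleosomes were spread widely. They were 5.89 ± 0.628% of the calls of a chromosome (SD, n = 16), from 4.76% on chromosome 2 to 7.03% on chromosome 11. Within 20 kb of a chromosome end lay 144 depleted nucleosomes (5.07%) and 1732 other calls (3.84%), and the share was higher for depleted calls on 11 of 16 chromosomes. Of the 1240 calls with a ratio of 1/0.6 or more, 80 lay there (6.45%). By distance from the end, 27 of 366 calls were depleted within 5 kb (7.38%), 45 of 453 from 5 to 10 kb (9.93%), 71 of 1053 from 10 to 20 kb (6.74%), 183 of 3950 from 20 to 50 kb (4.63%) and 2514 of 42175 farther inward (5.96%). Calls near the ends were also poorer in reads, with a median of 413 from 5 to 10 kb and 572 beyond 50 kb, and the part of depth in these shares was not tested.

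The spacing of depleted nucleosomes was close to that of other calls. The distance to the next call had a median of 207 bp at depleted nucleosomes and 211 bp at other calls. A gap of 250 bp or more on at least 1 side was found at 1628 depleted nucleosomes (57.3%) and at 27451 other calls (60.8%), with the depleted calls higher on 2 of 16 chromosomes. Gaps of 1000 bp or more were rare but went the other way, at 52 depleted nucleosomes (1.83%) and 151 other calls (0.334%). Such gaps were also found at 19 of the 1240 calls of the mirror-image limit (1.53%), so they were not particular to depleted calls. Depth was not matched in these shares, and its part was not tested.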

How the data were processed

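Mononucleosomal DNA of 2 yeast MNase-seq libraries of 1 condition was sequenced from 1 end. The authors deposited 1 line per aligned read, and the deposited values are positions in bp (unit: other, with no count, score or normalization). Every line spans 150 bp, so reads had been lengthened along their strand. The submitters' processing notes name sacCer2. The aligner and the treatment of duplicates and of reads with several positions are not given in the sources used here. Repeated reads remain in the files, so PCR copies add to the counts.

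Lines were read as counted from 0 and positions are printed counted from 1. 5′ ends were moved by 42 bp (replicate 2) or 47 bp (replicate 1), summed, smoothed with a Gaussian (SD 20 bp), and maxima were accepted in order of height, none within 147 bp of a higher one. Midpoints within 73 bp were counted per library and divided by its nuclear reads. Ratios carry exact binomial intervals at 95%. Profiles were smoothed with an SD of 3 bp, and strand distances used at most 20 reads per position. Named positions were the 10 depleted calls with the most reads, the 10 lowest ratios with at least 200 reads, the 3 longest runs, and the 3 calls nearest the limit on either side. The richest call and a one-sided one of the lowest 10 were drawn after their values were seen. The calling was checked on simulated data with both strands drawn at equal chance and no copied reads added. That check therefore does not cover one-sided calls or repeated reads. Python 3.11.15, numpy 2.4.6, scipy 1.17.1, pandas 2.3.3 and matplotlib 3.10.9 were used.

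The rule, the limits for one-sided and two-sided calls and the settings were chosen with earlier results of these data known. The replicates may be technical, and no p-value was computed. The gene table at hand belongs to another assembly and was not joined.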

Additional observations from a re-analysis of the deposited data

Results flagged for a closer look

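Outside the nuclear calls described above, the mitochondrial chromosome took 27301 reads in replicate 2 and 16439 in replicate 1, which entered no ratio. A further 1465 nuclear calls had fewer than 50 reads in both libraries together and were left out by the rule, and 508 of them (34.7%) had a ratio of 0.6 or less, against 32.1% of the calls with 50 to 99 reads. There is no control library to set these numbers against, and for the calls under 50 reads counting error alone spreads the ratio widely.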

How the results depend on the processing

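The number of depleted nucleosomes, 2841, was within 1.5 times of that under 9 of 14 alternatives. It was 2644 (5.52% of the calls of that setting) with positions called without replicate 1 and 3041 (6.29%) without replicate 2. With reads moved by 73 bp, 2886 calls were depleted (6.01%). Within 20 bp, 13.2% of the 2841 had one of them and 15.0% had any call of that setting, against 23.8% of the other calls, and within 40 bp the shares of the 2841 were 66.4% and 77.0%. Keeping 1 read per position and strand left 523, with 18 beside another depleted call, 172 low on each strand alone, 21 in the outer 20 kb, 279 beside a gap of 250 bp or more, and strand distances of 63 bp in replicate 2 and 86 bp in replicate 1. A minimum of 200 reads gave 1740, 212, 309, 70 and 1006 for the same counts. A ratio of 0.5 or less gave 1191, 126, 267, 57 and 674, with a strand distance of 72 bp in replicate 2. A ratio of 0.7 or less gave 6044, 1786, 1710, 279 and 3496. Two-sided calls only, a setting added after seeing the data, gave 909, 52, 333, 62 and 522, with 93 bp in replicate 2. At most 20 reads per position and strand, added likewise, gave 322 beside another depleted call, and an exclusion zone of 120 bp gave 72 bp in replicate 2. A moved limit or fewer calls lowers or raises the counts by construction. Depleted calls were 1.11% of the calls of the setting with 1 read per position and strand, and 4.02% with at least 200 reads. They were 2.48% at a ratio of 0.5 or less, 12.6% at 0.7 or less, and 1.89% with two-sided calls only. A lower share of depleted calls also leaves fewer of them beside another one. The cause of the changes with limited reads per position and of the changed distances was not tested. The one-sided share, 46.6%, was 19.7% with 1 read per position and 55.2% at a ratio of 0.5 or less. No paired analysis was possible because there is 1 library on each side. Depth limits the single calls, since 24.7% had an interval wholly below 0.6.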
